A study of Homo sapiens with 4 samples.

Results

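WDR5 peaks in RS4;11 cells named 873 genes, and these genes were divided by the H3K4me3 peaks that the same cell line had at each of them. A WDR5 gene is any gene symbol that the RS4;11 WDR5 peak list gives for a peak inside a transcript or within 20 kb of it. A gene was called exon-marked when an RS4;11 H3K4me3 peak was flagged as lying in an exon of it. The other genes had H3K4me3 peaks only in an intron or in the flanks of 20 kb, or were not named by any H3K4me3 peak. The 873 genes are 4.7% of the 18576 symbols that the 4 peak lists of the study name. Of these genes, 519 were exon-marked, 229 had other H3K4me3 lines only, and 125 had no H3K4me3 line.

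WDR5 and H3K4me3 were measured by ChIP-seq in RS4;11 and THP-1 cells, both grown in RPMI1640 with 10% FBS, with 1 sample for each antibody and line and no treatment given. RS4;11 is a B-cell precursor acute lymphoblastic leukemia line and THP-1 a monocytic acute myeloid leukemia line, and both carry a rearranged MLL gene. The sample labels name the cell lines but give the other type of leukemia to the RS4;11 H3K4me3 and THP-1 WDR5 samples. Here the line names were used. Each group is 1 culture of 1 line, so no value has a replicate error and no test between conditions was possible. Intervals are 95% Wilson intervals and cover counting error over genes only. They are too narrow, because 361 of the 873 genes share a WDR5 peak with another symbol.

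WDR5 is a WD-repeat protein that holds together the MLL and SET complexes, which methylate lysine 4 of histone H3. Trimethylation of this residue, H3K4me3, typically covers the start of active genes, and many of these starts lie in CpG-rich sequence. In MLL-rearranged leukemia, the fusion protein keeps genes such as MEIS1 and the HOXA cluster active.

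Sequence of 7 WDR5 peaks is shown to make the difference in CpG content between WDR5 peaks at marked gene starts and WDR5 peaks elsewhere visible. Each is a window of 150 bp of the hg19 (GRCh37) plus strand, placed as near the peak center as the annotation allows without a base of an untranslated region, with CG dinucleotides in capitals. The windows of RBM22 (in the gene), HIST1H1C (in the coding sequence) and CSRNP2 (at and upstream of the start) come from exon-marked genes whose WDR5 peak spanned the start.

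RBM22, chr5:150080321-150080470: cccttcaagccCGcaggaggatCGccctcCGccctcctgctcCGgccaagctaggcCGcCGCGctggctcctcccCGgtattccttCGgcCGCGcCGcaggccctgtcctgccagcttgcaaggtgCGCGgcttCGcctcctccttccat
HIST1H1C, chr6:26056357-26056506: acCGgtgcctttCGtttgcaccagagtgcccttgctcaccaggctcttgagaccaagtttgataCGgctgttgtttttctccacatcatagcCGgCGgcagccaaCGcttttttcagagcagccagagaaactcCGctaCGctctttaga
CSRNP2, chr12:51477427-51477576: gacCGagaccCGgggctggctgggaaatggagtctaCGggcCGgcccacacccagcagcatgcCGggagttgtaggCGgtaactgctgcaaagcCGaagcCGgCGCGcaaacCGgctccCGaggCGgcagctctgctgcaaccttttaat

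The PCDHGA1 window is from the peak that named the protocadherin gamma genes from their downstream side, and lies in an intron of DIAPH1. The remaining windows are from genes with no H3K4me3 line in RS4;11 cells, namely GSK3B (in an intron), RQCD1 (an exon and intron boundary) and MEIS1 (in an intron, partly in an exon of the antisense gene MEIS1-AS2).

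PCDHGA1, chr5:140902790-140902939: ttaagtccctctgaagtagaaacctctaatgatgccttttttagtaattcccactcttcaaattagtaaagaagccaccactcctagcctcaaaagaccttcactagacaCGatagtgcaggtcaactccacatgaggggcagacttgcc
GSK3B, chr3:119595110-119595259: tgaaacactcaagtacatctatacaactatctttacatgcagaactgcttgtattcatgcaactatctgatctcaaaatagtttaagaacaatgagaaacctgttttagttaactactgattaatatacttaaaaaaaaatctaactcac
RQCD1, chr2:219449430-219449579: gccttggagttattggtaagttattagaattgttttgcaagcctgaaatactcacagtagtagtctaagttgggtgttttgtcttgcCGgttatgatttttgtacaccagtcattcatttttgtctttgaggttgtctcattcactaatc
MEIS1, chr2:66669621-66669770: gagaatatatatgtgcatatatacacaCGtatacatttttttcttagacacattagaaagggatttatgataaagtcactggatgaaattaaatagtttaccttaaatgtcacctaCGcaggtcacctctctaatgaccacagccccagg

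The 3 windows at marked starts held 15 (RBM22), 8 (HIST1H1C) and 13 (CSRNP2) CG dinucleotides. The windows of PCDHGA1, GSK3B, RQCD1 and MEIS1 held 1, 0, 1 and 2. GC content was 52.7 to 71.3% in the windows at marked starts and 28.7 to 44% in the others. The windows are examples, and not all WDR5 peaks across a start were CpG-rich. For the 11 genes with such a peak, values of the central 300 bp were averaged over all WDR5 peaks of the gene, at the start or not. These averages ran from 33.7 to 74% GC and from 0 to 35 CG dinucleotides.

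The share of WDR5 genes that were exon-marked was that of all genes in the lists. It was 59.5% (519 of 873, interval 56.2 to 62.7) against 60.0% of all 18576 symbols. Other lines only were found for 26.2% (229 genes, 23.4 to 29.2) against 27.9%, and no line for 14.3% (125 genes, 12.2 to 16.8) against 12.1%. A symbol with no RS4;11 H3K4me3 line enters these 18576 only when another of the lists names it, so the background misses genes that no list names. Against all 20056 RefSeq protein-coding genes, of which 52.6% were exon-marked, the 812 protein-coding WDR5 genes had a higher share, 61.7% (58.3 to 65.0). With no line, the order was the other way, 12.2% of these WDR5 genes (10.1 to 14.6) against 26.3%. A RefSeq gene that no list names counts here as having no line, whereas every WDR5 gene is named by a list. Of the listed symbols with a protein-coding (NM) transcript, 63.1% were exon-marked, so the 61.7% was not higher than that. Whether the share of WDR5 genes was higher thus depended on the genes taken as background.

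**Figure D1:**
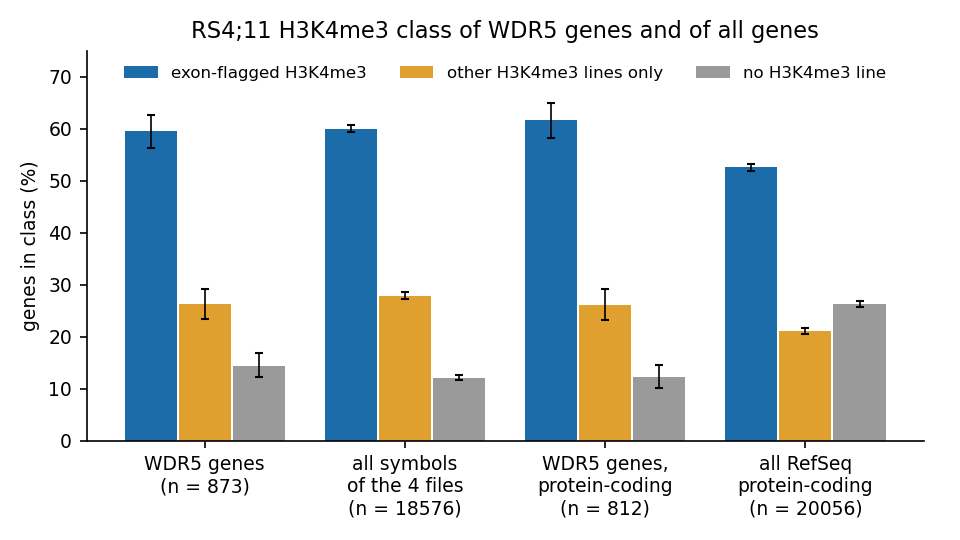
Percent of genes in each RS4;11 H3K4me3 class (y axis) for the WDR5 genes, all symbols of the 4 peak lists, and both sets by RefSeq protein-coding genes. Error bars are 95% Wilson intervals over genes, from 1 sample per antibody. The exon-flagged bars of WDR5 genes and of all symbols are level (59.5 and 60.0%), and that of all RefSeq protein-coding genes is lower (52.6%).

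WDR5 genes were long. Their median length was 81557 bp for exon-marked genes, 114901 bp for genes with other lines only and 46264 bp for genes with no line, against 28251 bp over all symbols. WDR5 genes made up 2.5% of the symbols under 20 kb and 16.1% of those of 200 kb or more. A longer gene offers more sequence in which a peak names it, and the part of length in membership was not tested. Within bins of length, the exon-marked share of WDR5 genes stayed near that of all symbols. It was 54.8% (47.7 to 61.8) against 54.4% under 20 kb, 71.7% (63.7 to 78.6) against 68.5% from 20 to 50 kb, 63.4% (55.2 to 70.9) against 66.7% from 50 to 100 kb, 61.2% (53.3 to 68.6) against 63.9% from 100 to 200 kb, and 54.5% (48.1 to 60.8) against 53.0% from 200 kb. RefSeq protein-coding genes of the same length include genes that no list names. Against them, the gap was widest under 20 kb, at 59.4% (51.6 to 66.7) against 46.6%. From 200 kb it was 54.6% (48.1 to 61.0) against 51.5%.

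Most WDR5 peaks of these genes lay away from exons in every class. An exon flag was found for 51 exon-marked genes (9.83%, 7.55 to 12.7), 15 genes with other lines only (6.55%, 4.01 to 10.5) and 5 genes with no line (4.0%, 1.72 to 9.02). An intron flag without an exon flag was found for 47.0% (42.8 to 51.3), 53.7% (47.2 to 60.1) and 41.6% (33.3 to 50.4) of the genes of these classes. The intervals of neighboring classes overlap for both positions. Genes with no line had the WDR5 peak only upstream in 28.0% (20.9 to 36.4), against 19.1% (15.9 to 22.7) of exon-marked genes, intervals that also overlap. Read by position, 51 of the 71 genes with an exon-flagged WDR5 peak were exon-marked (71.8%, 60.5 to 81.0). The share was 58.2% (53.5 to 62.9) for peaks in introns, 55.0% (47.7 to 62.1) for upstream peaks and 62.8% (55.8 to 69.2) for downstream peaks.

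**Figure D2:**
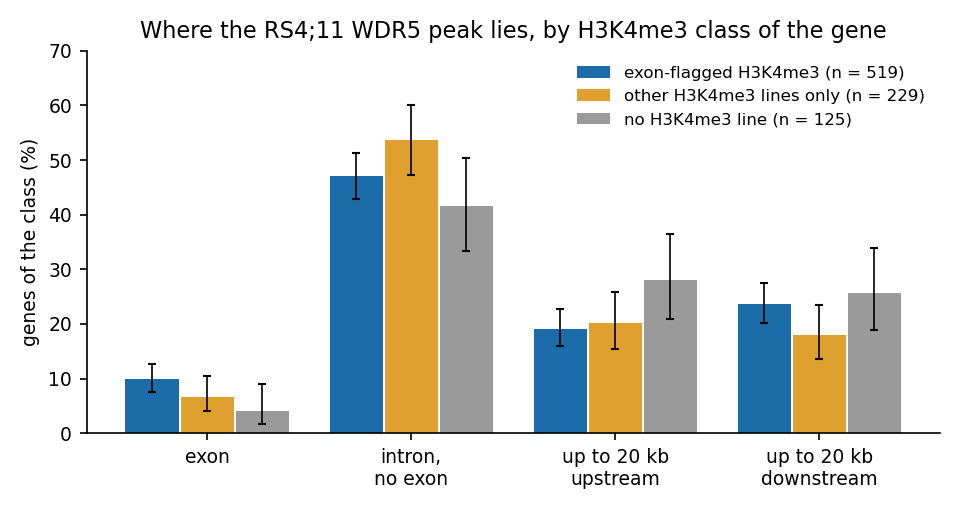
Percent of the genes of each H3K4me3 class (y axis) by the position of their RS4;11 WDR5 peak, with 95% Wilson intervals over genes. Intron and flank positions exclude genes with an exon flag. Exon flags were found for 9.83, 6.55 and 4.0% of the genes of the 3 classes.

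WDR5 peaks that spanned a gene start, flagged both upstream and exon for 1 transcript, were found for 11 genes, and all 11 were exon-marked. No gene of the other classes had one (0 of 354, interval 0 to 1.07%). The 11 genes are CD93, RBM22, HIST1H1C, CSRNP2, SKA3, ST20, PDSS2, ARSD, C11orf73, GPR82 and CH25H. For each of them, the WDR5 peak overlapped the gene's own exon-flagged H3K4me3 peak. With 5 more genes whose exon-flagged WDR5 peak overlapped their own mark (MRP63, C15orf37, LINS1, PIGK and MED24), the group held 16 genes. MRP63 and SKA3 share both their WDR5 peaks, as do ST20 and C15orf37.

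These 16 genes have unlike functions. RBM22 is a spliceosome protein, MED24 a subunit of the Mediator complex and HIST1H1C a linker histone, whose close paralogs can share reads with it. SKA3 acts at the kinetochore, MRP63 is a protein of the mitochondrial ribosome, PDSS2 makes the side chain of coenzyme Q and PIGK takes part in attaching GPI anchors. CD93 and GPR82 are membrane receptors, and CH25H makes 25-hydroxycholesterol. The overlapped H3K4me3 peaks were 1514 bp (CH25H) to 4141 bp (HIST1H1C) from start to end. In THP-1 cells, 14 of the 16 were exon-marked too. CD93 had no THP-1 H3K4me3 line, and GPR82 had lines outside exons only.

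Among the genes the study had picked from these libraries, BCL9, RAB28, CD93, MED24, RBM22 and PIGK were exon-marked WDR5 genes, and LYN had no WDR5 line in RS4;11 cells. BCL9, a co-activator of β-catenin, had its WDR5 peak upstream, 412 bp from an exon-flagged H3K4me3 peak of 2800 bp. RAB28, a small GTPase, had 2 intronic WDR5 peaks, and 1 of them overlapped its exon-flagged H3K4me3 peak of 2709 bp. The WDR5 peak of CD93 lay in a peak of 2702 bp, that of RBM22 in one of 2625 bp, that of PIGK in one of 2547 bp and that of MED24 in one of 1968 bp. As the study chose these genes on the same samples, their count is no independent evidence.

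For most exon-marked genes, WDR5 and the mark lay apart. The WDR5 peak overlapped the gene's own exon-flagged H3K4me3 peak in 38 of 519 genes (7.32%, 5.38 to 9.89), and overlapped any RS4;11 H3K4me3 peak in 77 (14.8%, 12.0 to 18.2). It came within 20 kb of the gene's own mark in 251 genes (48.4%, 44.1 to 52.7) and within 100 kb in 428 (82.5%, 79.0 to 85.5). The median distance was 21608 bp, with quartiles of 8812 and 61922 bp. Genes with other lines only overlapped an H3K4me3 peak in 16 of 229 cases (6.99%, 4.35 to 11.0). A gene with no line cannot show an overlap, since a peak so placed would have named it. Counted by peaks, 58 of the 703 WDR5 peaks overlapped an RS4;11 H3K4me3 peak. The overlap that the coverage of H3K4me3 peaks alone would give was not computed. These shares therefore give no verdict on whether WDR5 and H3K4me3 co-localize over the genome.

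**Figure D3:**
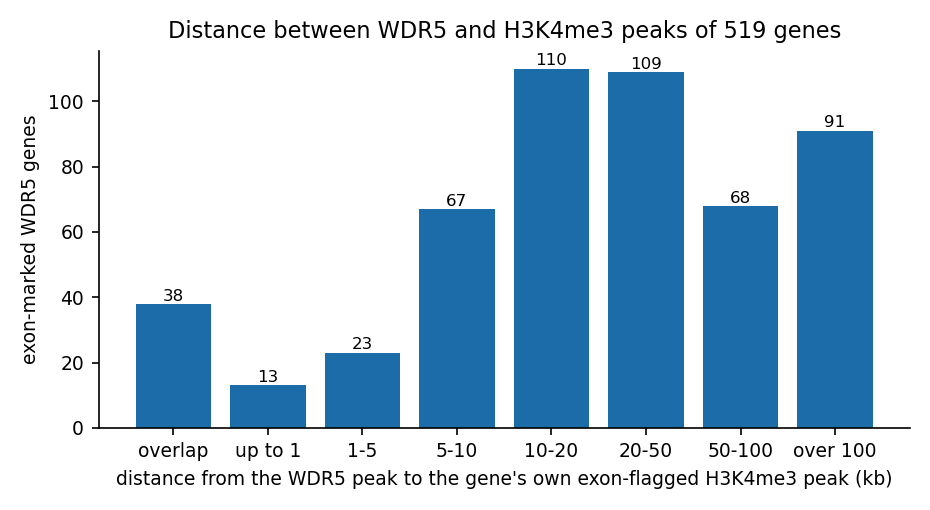
Number of the 519 exon-marked WDR5 genes (y axis) by the distance in kb from their nearest WDR5 peak to their own exon-flagged H3K4me3 peak (x axis, bins of unequal width). In 38 genes the peaks overlapped, and in 91 they were over 100 kb apart.

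The largest group of exon-marked genes that share 1 WDR5 peak was the protocadherin gamma cluster, whose neuronal adhesion proteins join alternative start exons to a shared end. Here 22 of its symbols were named by 1 peak, chr5:140902752-140902978, all as downstream and all 8295 bp from an exon-flagged H3K4me3 peak. Only 6 of the 22 had an H3K4me3 peak across their own start, and 7 were exon-marked in THP-1 cells. They count as 22 genes in the shares but rest on 1 WDR5 peak. Without them, 58.4% (55.1 to 61.7) of the WDR5 genes were exon-marked.

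The mark of the exon-marked genes mostly lay at the start. An H3K4me3 peak flagged upstream and exon for 1 transcript was found for 451 of 519 genes (86.9%, 83.7 to 89.5), against 89.6% of all exon-marked symbols. Of these 451 genes, 412 (91.4%, 88.4 to 93.6) were exon-marked in THP-1 cells. Of the 68 marked only at other exons, 40 were (58.8%, 47.0 to 69.7). The median width of the widest exon-flagged peak was 2746 bp in the 451 genes (quartiles 2257 and 3369) and 1570 bp in the 68 (970 and 2533).

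CpG content at the WDR5 peak was low in all 3 classes, with a median of 2 CG dinucleotides in the central 300 bp of each. These counts are averages over all WDR5 peaks of a gene, including peaks away from the mark or the start. The median was 8 for the 93 WDR5 genes with a WDR5 peak that overlapped an H3K4me3 peak, and 16 for the 11 with a peak across the start. Among these 11, the average ran from 0 (GPR82) and 7 (PDSS2) to 35 (ARSD). Median GC content was 42.0% for exon-marked genes, 42.0% for genes with other lines only and 38.3% for genes with no line. The E-box CACGTG, a palindrome, was found in 16 of 435 windows of exon-marked genes (3.68%, 2.28 to 5.89), 6 of 233 (2.58%, 1.19 to 5.50) and 0 of 108 (0 to 3.43%). Over the windows of all 703 peaks it was 2.99%. The ETS core CGGAAG, on either strand, was in 2.07, 2.58 and 1.85% of them, and in 2.13% over all. A peak that names genes of different classes counts in each.

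At the gene starts themselves, the classes differed in CpG content. In RefSeq promoters (GRCh38.p14, 250 bp before to 50 bp after the start), the median count was 25 for 433 exon-marked genes (quartiles 15 and 34), 21 for 161 genes with other lines only (7 and 34) and 10.5 for 88 genes with no line (3.75 and 25.25). Over all symbols of the same classes the medians were 26, 16 and 16. Of the genes with no line, 23 of 88 (26.1%, 18.1 to 36.2) had 25 CG dinucleotides or more, against 51.0% (46.3 to 55.7) of exon-marked genes. GSK3B, with 33, is an example. CGGAAG was found in 29.3% of the promoters of exon-marked WDR5 genes, 17.4% with other lines only and 17.2% with no line. The shares were 33.8, 16.5 and 16.4% over all symbols of these classes and 19.9% over all 27305 promoters. For CACGTG they were 8.31, 6.21 and 11.5%, and 7.43% over all promoters.

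**Figure D4:**
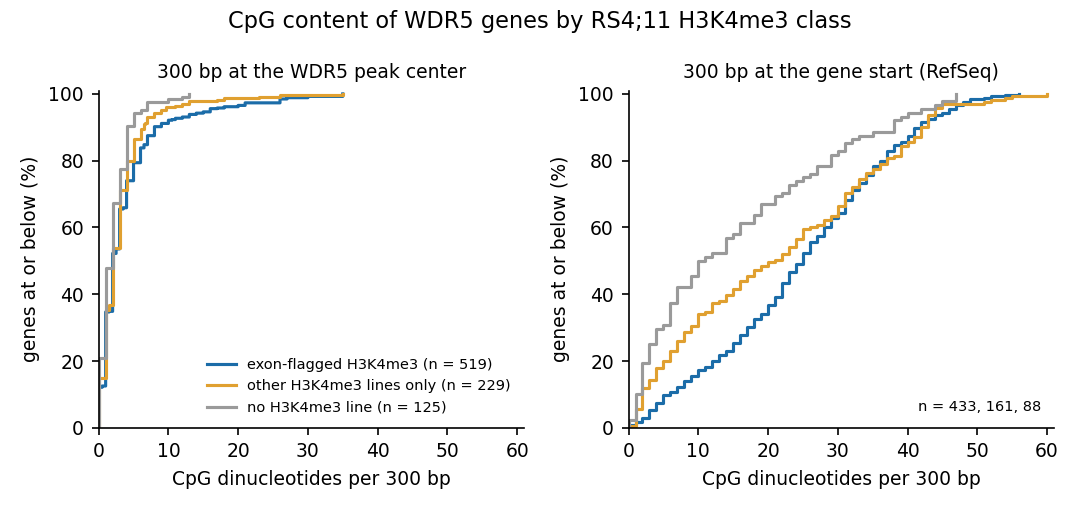
Cumulative percent of WDR5 genes (y axis) by the number of CpG dinucleotides (x axis) in 300 bp at the WDR5 peak (left, mean over the peaks of a gene) and at the RefSeq gene start (right), 1 line for each H3K4me3 class. The 3 lines lie close at the WDR5 peak, where each median is 2, and part at the gene start, where the medians are 25, 21 and 10.5.

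The genes with no H3K4me3 line included 5 with an exon-flagged WDR5 peak. GSK3B encodes a kinase of the Wnt pathway, RQCD1 a subunit of the CCR4-NOT deadenylase, MID2 a ubiquitin ligase, KRTAP3-2 a keratin-associated protein and C1orf114 a coiled-coil protein. The nearest RS4;11 H3K4me3 peak to the WDR5 peak lay 110037 bp from that of GSK3B, 73354 bp from that of RQCD1, 149754 bp from that of MID2, 108420 bp from that of KRTAP3-2 and 27297 bp from that of C1orf114. Of the 5, MID2 was exon-marked in THP-1 cells, and GSK3B had lines outside exons there. The class held fewer protein-coding genes by RefSeq (80%, 72.1 to 86.1) than the exon-marked class (96.5%, 94.6 to 97.8). All symbols showed the same order by transcripts with an NM accession, at 84.2% with no line and 95.1% exon-marked, against 84.8 and 96.9% of WDR5 genes.

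A missing line does not show that the mark was absent. GAPDH and ACTB, housekeeping genes that are no WDR5 genes and were looked up after the values were seen, had no exon-flagged line in RS4;11 or THP-1 cells. Of 77 ribosomal protein genes in the lists, 61 were exon-marked in RS4;11 cells, 9 had other lines only and 7 had none. The RS4;11 list held 464 H3K4me3 peaks of 4000 to 4500 bp and none wider, with a widest of 4477 bp, and the THP-1 list ended at 4445 bp. The part of this upper limit in the classes was not tested.

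The H3K4me3 lists were checked against cell type markers. Of 12 B-cell precursor genes, 4 were exon-marked in RS4;11 cells, CD22, CD79A and CD79B among them, while PAX5, VPREB1 and RAG2 had no line. The THP-1 list had 7 of the 12 exon-marked. Of 10 monocyte genes, 4 (CD14, LYZ, CD33 and ITGAM) were exon-marked in the RS4;11 list, against 9 in the THP-1 list. Of 5 T cell genes, CD2, CD3D and CD3E were exon-marked in the RS4;11 list and 0 in the THP-1 list. The B-cell precursor label of the RS4;11 list is thus neither borne out nor refuted by these markers. Their counts rest in part on missing lines, which do not show that a mark was absent. Over all symbols too, the exon-marked share was higher in the THP-1 list (66.2%) than in the RS4;11 list (60.0%). Whether each list matches its label cannot be decided from so few genes, and the lists are named here by the line in their labels. Among all these markers, RAG1, with lines outside exons only, was the 1 WDR5 gene.

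In THP-1 cells, the mark of WDR5 genes followed their class in RS4;11 cells. Of the exon-marked genes, 452 of 519 (87.1%, 83.9 to 89.7) were exon-marked in THP-1 cells, against 86.9% of all symbols exon-marked in RS4;11 cells and 66.2% of all symbols. Of those with other lines only, 89 of 229 (38.9%, 32.8 to 45.3) were, against 30.4% of all symbols in that class. Of those with no line, 27 of 125 (21.6%, 15.3 to 29.6) were, and 60 had no line in either cell line. Over all symbols with no RS4;11 line the share was higher, 1042 of 2247 (46.4%, 44.3 to 48.4), but most of these symbols are in the lists because a THP-1 file named them.

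**Figure D5:**
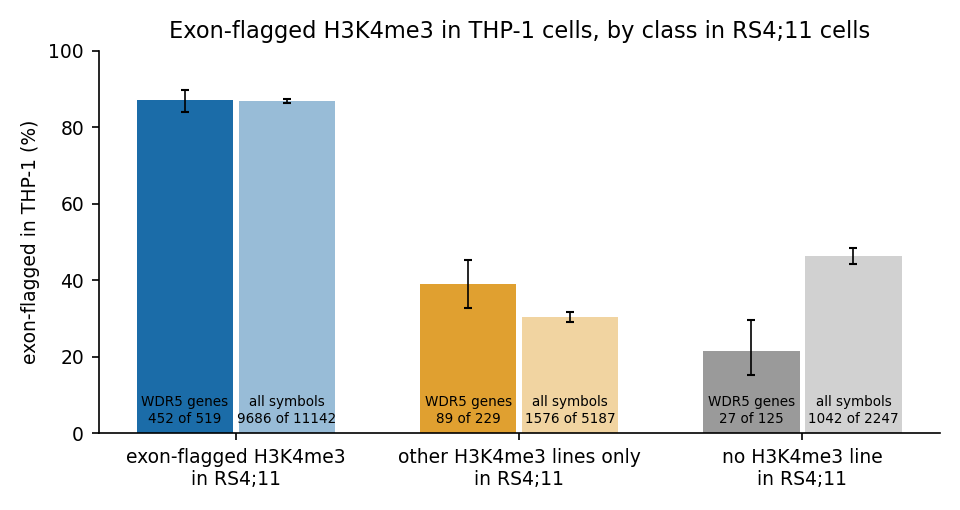
Percent of genes with an exon-flagged H3K4me3 peak in THP-1 cells (y axis) by class in RS4;11 cells, for WDR5 genes (dark bars) and all symbols (pale bars), with 95% Wilson intervals over genes. WDR5 genes stand at 87.1, 38.9 and 21.6%, and all symbols at 86.9, 30.4 and 46.4%, where the last holds mostly symbols that a THP-1 list brought in.

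Of the genes with no RS4;11 line, the 27 that were exon-marked in THP-1 cells include MEIS1 and DKK3. MEIS1 is a homeobox cofactor of HOXA9, and DKK3 a secreted protein of the Dickkopf family. The first 15 by alphabet are BCAR1, C6orf186, CCDC67, DKK3, FRMPD4, GABRA3, GALNTL6, LANCL3, LOC100132891, LOC26080, LOC284798, MAMDC2, MATN2, MEIS1 and MID2. The intronic WDR5 peak of MEIS1 in RS4;11 cells lay 954070 bp from the nearest RS4;11 H3K4me3 peak. As the RS4;11 list held no peak wider than 4477 bp, this does not show that MEIS1 lacked the mark. The converse, an exon mark in RS4;11 cells with no THP-1 line, was found for 13 WDR5 genes, CD93 among them.

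In THP-1 cells, 39 of the WDR5 genes were WDR5 genes as well, which is 4.47% of the 873, against 1.70% of all symbols. It is 12.3% of the 316 THP-1 WDR5 genes, against 4.7% of all symbols that are RS4;11 WDR5 genes. They were 20 of the exon-marked genes (3.85%, 2.51 to 5.88), 7 with other lines only (3.06%, 1.49 to 6.17) and 12 with no line (9.6%, 5.58 to 16.0). Over all symbols of these classes, 1.44, 1.85 and 2.63% were THP-1 WDR5 genes. Of these 12, 6 lie on unplaced contigs, and 5 of the 6 share 1 peak (DUX4, which encodes a double homeobox protein, and 4 LOC symbols). On placed chromosomes the share with no line was 5.04% (2.33 to 10.6), against 3.67% (2.36 to 5.66) of exon-marked genes. Those with the most WDR5 peaks were ROCK1, a kinase that acts on the cytoskeleton, with 3, then NBR1, TMEM106A, MIR1977, C4orf37, CDH12 and FAM135A with 2. A ROCK1 peak of 856 bp was the widest RS4;11 WDR5 peak, against a median of 392 bp. The H3K4me3 peaks overlapped at ROCK1 (424 bp) and MIR1977 (380 and 277 bp) were narrow, against a median of 1390 bp. Whether signal artifacts on placed chromosomes add to the genes shared by both lines was not tested.

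Gene groups, taken from lists, differed in class and are described by counts. All 8 WDR5 genes among 65 chromatin regulators were exon-marked (among them AFF3, HDAC1, HDAC4, HDAC9, KDM4B, NSD1 and SETD2), against 44 of the 65 over the list. The WDR5 peak lay far from the mark in most of them. The distance was 4418 bp for HDAC1, a histone deacetylase, 58409 bp for SETD2, which trimethylates H3K36, 61906 bp for NSD1, another H3K36 methyltransferase, and 270257 bp for HDAC9. MLL3, itself an H3K4 methyltransferase, was the 1 WDR5 gene of 19 in the WDR5 and MLL complex list and was exon-marked, at 110401 bp. Its list was exon-marked for 17 of 19.

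In 4 more lists, the few WDR5 genes were exon-marked. They were 5 of 57 RBM and SRSF genes (RBM22, RBM25, RBM27, SFRS2B and SFRS4), 3 of 30 Mediator subunits (MED24, MED27 and MED30), 2 of 59 RAB GTPases (RAB23 and RAB28) and 3 of 65 histone genes (HIST1H1C, HIST1H2BB and HIST1H3C). Over the whole lists, 44, 27, 43 and 20 were exon-marked. RBM22, MED24 and RAB28 are among the genes the study picked on these same samples, so they are no independent evidence. The 3 histone genes are named by 1 WDR5 peak and are not separate observations. In the histone list, 38 of the 65 symbols had other lines only. Of 21 ZNF zinc finger genes, 15 were exon-marked, 4 had other lines only and 2 (ZNF229 and ZNF560) had none, against 381 of 493 exon-marked over the list.

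In the lists of neuronal signaling and sensing genes, most WDR5 genes were not exon-marked, and neither were most genes of the whole lists. Of 10 ion channels, 2 (CACNA2D2 and CACNB2) were exon-marked, 5 had other lines only and 3 (SCN2A, TRPA1 and TRPC2) had none, against 59 exon-marked of 148. Of 8 glutamate and GABA receptors, 2 (GRIK4 and GRM8) were exon-marked, 4 had other lines and 2 had none, GABRA3 among them, against 14 of 46. CNTN5 and CNTNAP2, the 2 WDR5 genes among 18 contactins, neurexins and neuroligins, had other lines only, as did 11 of the 18. Of 8 olfactory receptors, 0 were exon-marked and 6 had no line, against 2 exon-marked and 43 with no line of 123. Of 9 solute carriers, 6 were exon-marked (66.7%), against 177 of 312 (56.7%). Among 38 noncoding symbols, 8 were exon-marked and 18 had no line (47.4%), against 20.3% over the list.

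Of the 28 MLL fusion targets in the lists, 3 were WDR5 genes and 0 of these were exon-marked, too few to tell from the list's own share. CDK6, a cell cycle kinase, and JMJD1C, a Jumonji-domain protein, had other lines only, and MEIS1 had none. For MEIS1 too, a missing line does not show that the mark was absent. Over the 28 genes of this list, 6 were exon-marked, 14 had other lines only and 8 had none. JMJD1C was exon-marked in THP-1 cells, as was MEIS1, and CDK6 was not. Of the cell cycle and apoptosis genes, MAX, the partner of MYC, was exon-marked, and BBC3, a pro-apoptotic BCL2 relative, and CDK6 had other lines only. No gene of the myeloid or ribosomal protein lists was a WDR5 gene in RS4;11 cells.

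Repeated WDR5 peaks were rare in every class, with 2 or more in 36 exon-marked genes (6.94%, 5.05 to 9.45), 17 with other lines only (7.42%, 4.69 to 11.6) and 1 with no line (0.8%, 0.141 to 4.39). The 5 genes with 3 peaks were PCNX, which was exon-marked, and ADM2, MIOX, CSMD3 and ROCK1, which had other lines only. ADM2, a peptide hormone of the calcitonin family, and its neighbor MIOX, an enzyme of inositol breakdown, are named by the same 3 peaks on chromosome 22. Of these, the middle one (chr22:50929063-50929433) overlapped an H3K4me3 peak of 919 bp. CSMD3 spans 1214012 bp, and its 3 peaks lay 41456 to 142919 bp from the nearest H3K4me3 peak. ROCK1 had 2 peaks downstream and 1 flagged exon, and the middle peak overlapped an H3K4me3 peak of 424 bp.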

How the data were processed

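WDR5 and H3K4me3 were profiled by ChIP-seq in RS4;11 and THP-1 cells, 1 sample each. Per the study's methods, chromatin was sonicated for WDR5 and digested with micrococcal nuclease for H3K4me3, although the labels give sonication for all samples. The authors aligned reads to hg19 with Eland, kept reads with a unique position, and used MACS with default settings for peaks (version and control not given in the sources used here) and joined peaks to RefSeq transcripts. Submitters' processing notes name CASAVA 1.7 and 1.8.2.

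The deposited lists give, per peak and transcript, yes or no flags for exon, intron and the 20 kb flanks on either side. Counts, scores and p-values are not among their columns, so the depth is unknown and weak peaks cannot be removed. Unique alignment lowers signal in repeats.

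From these, symbols were classed, shares were given with 95% Wilson intervals, and overlap meant 1 shared bp. Gene lengths came from GENCODE 44 on GRCh37 (854 of 873 WDR5 genes), biotypes from RefSeq (866 of 873 matched). Sequence came from GRCh37 around the peak center and RefSeq promoters. Code was tested on simulated data. Python 3.11.15, numpy 2.4.6, pandas 2.3.3, scipy 1.17.1 and matplotlib 3.10.9 were used. Named genes were the study's targets, PIGK, genes with 3 or more WDR5 peaks, overlapping exon-flagged genes, unmarked genes with an exon-flagged WDR5 peak, list members, and genes shared with or marked in THP-1 cells. Groups over 15 were cut to those with the most WDR5 peaks, then the widest overlapped H3K4me3 peak, then by alphabet. Members, lists and rules were chosen with earlier results of these data known. Some items are not reported here. Alternatives changed the mark, the WDR5 peaks, the symbols and the background.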

Additional observations from a re-analysis of the deposited data

How the results depend on the processing

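No paired analysis was possible because each group has 1 sample, and for the same reason no replicate could be left out. A stricter peak threshold and a repeat share could not be run. Of 43 values under alternatives, 29 moved by less than their counting interval and 14 by more. With any H3K4me3 line inside the transcript as the mark, 75.7% of WDR5 genes were marked and 9.97% had other lines only. With a line across the start as the mark, chosen after the data were seen, the values were 51.7 and 34%. With THP-1 H3K4me3 as the mark, 65.1% were marked and 11.5% had no line. Genes with no line were 11.6% of those with a WDR5 peak inside the transcript and 17.8% of those with flank peaks alone. Using WDR5 peaks that name 1 symbol, 56.0% were exon-marked and 29.7% had other lines only. The exon-marked share of the background was 61.8% for symbols of the THP-1 files, 52.6% for all RefSeq protein-coding genes and 63.1% for symbols with an NM transcript, the last added after the data were seen. When a gap of up to 1 kb to H3K4me3 counted as overlap, the overlapping share of exon-marked genes was 19.3%. The unknown depth limits every call of a missing line.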
